A study of Mus musculus with 2 samples.

Results

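Amino acid transporters of the plasma membrane were described across the epithelial cells of the newborn hair follicle (HF), for 9 genes taken by symbol from the 32285 genes of the files, which were Slc7a2, Slc7a5, Slc7a8, Slc7a11, Slc3a2, Slc1a4, Slc1a5, Slc38a1 and Slc38a2. All 9 were listed once and had unique molecular identifiers (UMIs, the count of captured mRNA molecules) in both libraries. The measurement was droplet-based single-cell RNA sequencing of the 3′ ends of mRNAs, in 1 library labelled WT and 1 labelled PADI4 cKO, both from mouse back skin at postnatal day 1 and both placed in batch 1, with no treatment. In the study, K14-Cre, which is active in keratinocytes, switched on a tdTomato reporter, and in the cKO it also removed the floxed part of Padi4 (Padi4 fl/fl), the gene of an enzyme that turns peptidylarginine into citrulline. The protocol text attached to both samples names K14-Cre Padi4 fl/fl skin, and the study's methods name a Krt14-Cre line, the Ai14 reporter line and a floxed Padi4 line on B6.Cg. The background of the crossed animals, their sex and the number per library are not given in the sources used here. Cells were sorted for tdTomato after the epidermis had been removed, so the material was enriched for growing follicles.

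The files held 143938990 UMIs in the PADI4 WT library and 143945294 UMIs in the library labelled PADI4 cKO. After cell filters there were 8069 and 7394 cells, of which 7993 and 7357 were epithelial, with a median depth of 14670 and 16208 UMIs per cell. Krt14 was detected in 85.5% and 83.9% and Krt5 in 96.7% and 97.9% of the epithelial cells. Fibroblast-like clusters of 50 and 27 cells and melanocyte-like clusters of 26 and 10 cells were set aside. Padi4 itself had 98 and 92 UMIs, so its counts did not set the libraries apart, and the second is named by its label throughout. Cells with Xist and no Y-linked UMIs made up 26.0% of the PADI4 WT library and 98.4% of the other, so sex and label cannot be told apart in the full comparison, and 14 cell barcodes occurred in both libraries. With 1 library per genotype there was no replicate check. Intervals are exact 95% intervals for counting error only, and no p-value is given.

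Amino acids enter cells through carriers of several families. In the heteromeric exchangers, a light chain of the Slc7 family carries out the transport and is held at the plasma membrane by the heavy chain Slc3a2 (CD98hc, also known as 4F2hc). Slc7a5 (LAT1) and Slc7a8 (LAT2) exchange large neutral amino acids such as leucine, while Slc7a11 (xCT) brings in cystine, a source of cysteine for glutathione, in exchange for glutamate. Slc7a2 (CAT2) carries arginine and lysine and needs no heavy chain. Slc1a4 (ASCT1) and Slc1a5 (ASCT2) are sodium-dependent exchangers of small neutral amino acids, the latter also of glutamine, and Slc38a1 (SNAT1) and Slc38a2 (SNAT2) take up glutamine, alanine and other neutral amino acids together with sodium. Shortage of amino acids is known to raise several of these genes through the transcription factor ATF4.

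Levels are given as CPM, the UMIs of a gene summed over the cells of a group and divided by all UMIs of that group, scaled to 1e+06. Because each molecule is counted once at its 3′ end, these values are not divided by transcript length. The groups were 17 clusters with at least 50 cells in each library, clustered without the 9 genes and their relatives and called here by their leading gene. By marker genes, the clusters Frem1 and Phactr1 were LPC-like (lower proximal cup), Lmo3, Cdh13, Unc5d, Spon1 and Dio2 were ORS-like (outer root sheath), Kit and Prr5l were GL-like (germinative layer), Krt71 was IRS-like (inner root sheath) and Far2 was SG-like (sebaceous gland). A name needed at least 3 raised markers of a list, fewer of any other list, and no other list ahead among the 10 leading genes. The remaining 6 clusters did not meet this. Tagln, with Acta2, Myl9 and Krt19 among its leading genes, had 2 ORS markers raised, and Gulp1 had 1 marker. Dsg4 had 5 markers each of the cortex (Krt35 and Krt31 among them) and the GL, and Nr4a3 had 3 each of the GL and the LPC. Gpnmb had 6 of 8 GL markers and all 4 of the medulla list, of which Krtap8-1 was a leading gene. Krt75 had 4 upper HF markers and 3 of the companion layer, of which Krt75 itself led. All 53 Gulp1 cells of the library labelled PADI4 cKO and 41 of 142 in the PADI4 WT library were called doublets, so Gulp1 values may mix cell types. Their median depth was 34165 UMIs in the library labelled PADI4 cKO and 5833 UMIs in the PADI4 WT library. Some named clusters were mixed too. The Cdh13 cells had 5 ORS markers raised and 4 of the upper HF list, and the Lmo3 cells 4 of the ORS and 3 of the LPC (Lgr5, Ptch1 and Npr3). The Far2 cells had 6 of the SG and 4 of the upper HF, with 10.3% and 10.6% doublets. The Prr5l cells had 6 of 8 GL markers and all 4 of the shorter medulla list (Foxq1, Mt4, Krtap8-1 and Padi3), with Mt4 among their leading genes. Their name rests on counts from lists of unequal length, and they may be medulla cells as well as GL cells.

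**Figure D1:**
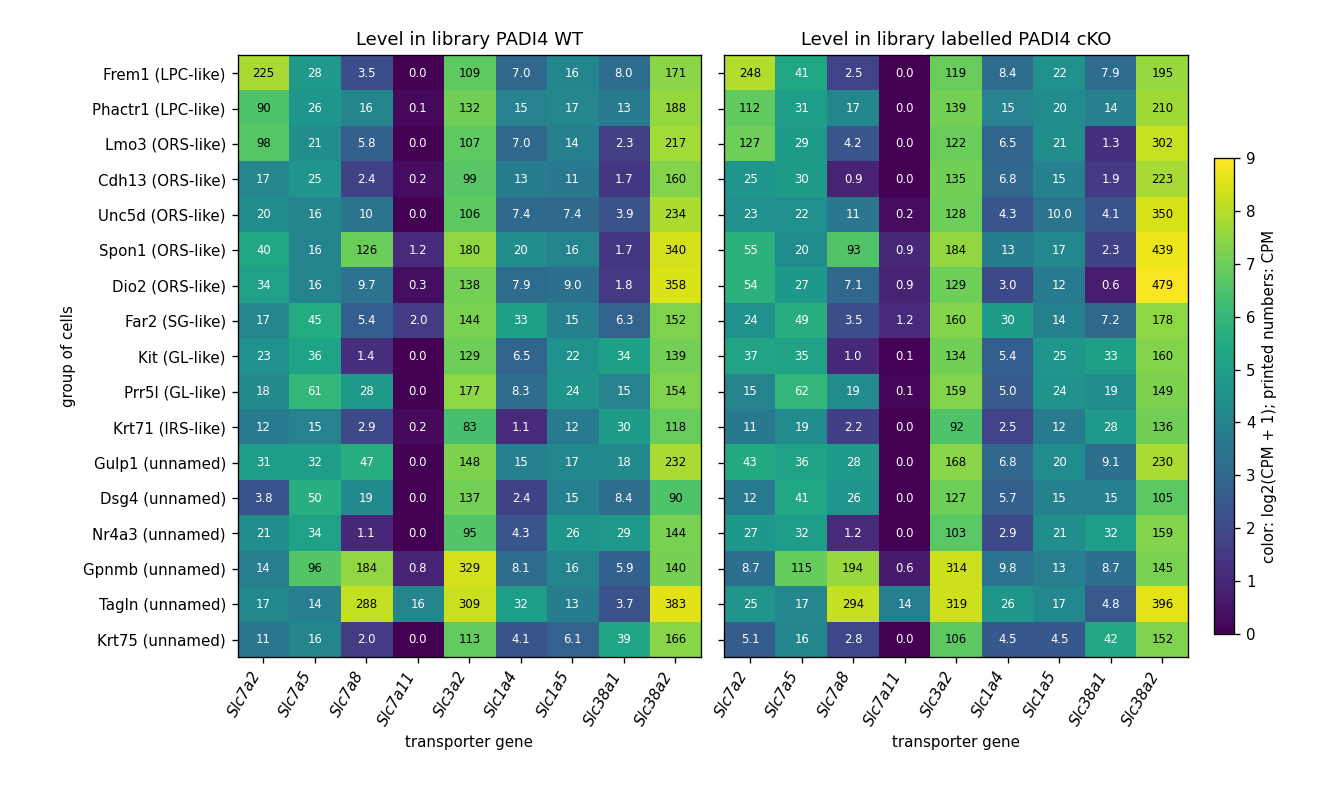
Heat map of the 9 transporter genes (columns) in the 17 groups of cells (rows) of each library (left, PADI4 WT, and right, the library labelled PADI4 cKO), where color is log2(CPM + 1) and the printed numbers are CPM. Slc7a8 runs from 1.06 to 288 CPM in the PADI4 WT library, Slc7a11 is near 0 outside the Tagln cells, and Slc38a2 is at 89.8 CPM or more in every group.

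Slc3a2, the shared heavy chain, was present in every group and varied least. It was highest in the Gpnmb cells, with 329 and 314 CPM in the PADI4 WT library and the other, and in the Tagln cells, with 309 and 319 CPM. The intervals of these leading groups overlapped in both libraries. The Spon1 cells followed with 180 and 184 CPM, and the Krt71 cells were lowest with 82.8 and 91.9 CPM, a range of 3.98-fold and 3.47-fold. The gene lies on chromosome 19 (8706882 to 8723369, minus strand, GRCm38).

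Slc7a8, the light chain LAT2, was far higher in a few groups than in the rest. The Tagln cells held 2238 UMIs, or 288 CPM (276 to 300), in the PADI4 WT library and 1976 UMIs, or 294 CPM (281 to 307), in the other. The Gpnmb cells had 184 and 194 CPM and the Spon1 cells 126 and 93.5 CPM, and each of these steps was clear of the next by its intervals. The lowest levels were 1.06 CPM in the Nr4a3 cells of the PADI4 WT library and 0.856 CPM in the Cdh13 cells of the other. They rested on 5 and 6 UMIs, so no fold is given here, and the log2 ranges of Slc7a8 given below carry this limit. Free RNA, estimated from collagen and hemoglobin genes at up to 7.74% and 2.73% of the UMIs of epithelial cells, could account for all Slc7a8 UMIs of the Kit, Krt75 and Nr4a3 cells in the PADI4 WT library. Thinned to 2000 UMIs per cell, 42.6% of the Tagln cells of the PADI4 WT library (38.0 to 47.3%) and 44.4% of the other (39.1 to 49.7%) had a Slc7a8 UMI, against 0.841% and 0.243% of the Kit cells. At full depth 90.7% and 89.0% of the Tagln cells had one. Within the ORS-like clusters Slc7a8 was uneven, since the Lmo3, Cdh13, Unc5d and Dio2 cells had between 2.43 and 10.0 CPM in the PADI4 WT library, far below the Spon1 cells. The Spon1 cells, however, had only 3 of 7 ORS markers raised (Sox9, Tbx1 and Col17a1), the fewest that allow a name. The others had 4 to 7, with Krt15 and Nfatc1 among them. Slc7a8 lies on chromosome 14 (54722209 to 54781946, minus strand).

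Slc7a5, the light chain LAT1, had another order of groups. It was highest in the Gpnmb cells, at 95.9 CPM (83.8 to 109) in the PADI4 WT library and 115 CPM (99.6 to 132) in the other, followed by the Prr5l cells at 61.4 and 62.0 CPM. The Tagln cells, where Slc7a8 led, were lowest for Slc7a5 in the PADI4 WT library with 13.5 CPM and had 16.9 CPM in the other. The range was 7.098-fold and 6.98-fold. Slc7a5 lies on chromosome 8 (121881150 to 121907694, minus strand). Over the 17 groups, the log2(CPM + 1) of Slc7a5 and Slc7a8 had a Pearson correlation of 0.12 (PADI4 WT) and 0.16 (PADI4 cKO by label).

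Slc7a11, the cystine carrier xCT, was found mostly in the Tagln cells. These held 124 of the 156 epithelial UMIs of the gene in the PADI4 WT library and 92 of 125 in the other, which is 16.0 CPM (13.3 to 19.0) and 13.7 CPM (11.02 to 16.8). The next group, the Far2 cells, had 2.005 and 1.16 CPM. No UMI was found in 9 of the 17 groups of the PADI4 WT library and 9 of those of the other, among them the Frem1 cells, where 3 UMIs would have been 0.269 and 0.206 CPM. In the Krt75 cells, which had none, the same limit was higher, and the Tagln cells were at least 10.4-fold and 8.02-fold above it. The gene lies on chromosome 3 (49892526 to 50443614, minus strand), where an antisense gene, Gm37854, overlaps it but not its last 1000 bases.

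Promoters (250 bases before to 50 bases after the start, RefSeq, GRCm38.p6) were listed for 5 of the members. The core of the amino acid response element, TGATGNAA on either strand, was found in those of Slc7a11 and Slc1a4, and in 3.97% of 32851 listed promoters. They are shown because no other listed member promoter had this match, with the matches in capitals.
Slc7a11 (chr3:50443564-50443863, minus strand): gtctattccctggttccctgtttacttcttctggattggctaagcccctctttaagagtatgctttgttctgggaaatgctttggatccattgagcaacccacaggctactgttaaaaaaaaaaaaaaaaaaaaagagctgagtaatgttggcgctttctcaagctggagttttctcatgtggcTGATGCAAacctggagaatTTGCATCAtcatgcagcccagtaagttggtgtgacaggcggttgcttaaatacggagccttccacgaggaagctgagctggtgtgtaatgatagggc
Slc1a4 (chr11:20332664-20332963, minus strand): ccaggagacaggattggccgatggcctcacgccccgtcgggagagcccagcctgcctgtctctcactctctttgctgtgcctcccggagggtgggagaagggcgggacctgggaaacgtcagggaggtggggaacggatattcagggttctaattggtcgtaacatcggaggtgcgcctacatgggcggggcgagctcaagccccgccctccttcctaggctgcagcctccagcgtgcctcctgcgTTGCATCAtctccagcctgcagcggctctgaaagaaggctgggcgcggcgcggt
In Slc7a11 the matches began 66 and 47 bases before the start and stood on opposite strands, and in Slc1a4 the match began 4 bases before it. The E-box CACGTG, held by 7.15% of promoters, was in none of the 5. The antioxidant response core TGACNNNGC, held by 12.4%, was in that of Slc38a2. The GC box GGGCGG, held by 35.7%, was in those of Slc1a4, Slc7a8, Slc38a2 and Slc3a2. The listed promoter of Slc3a2 (chr19:8713848-8714147) lay within the gene as placed above. The bases before its outer start at 8723369 were therefore not searched for any of these motifs. A match is a run of letters, and no binding was measured.

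The heavy chain and its light chains were then set side by side, with Slc7a6, Slc7a7 and Slc7a10, the other light chains that pair with Slc3a2, added from the wider list. The summed light chains had 338 CPM in the Tagln cells and 295 CPM in the Gpnmb cells of the PADI4 WT library, close to the Slc3a2 level of the same cells. In the Krt75 cells they had 27.6 CPM beside 113 CPM of Slc3a2. Per UMI of Slc3a2 there were 0.243 light chain UMIs (0.177 to 0.329) in the Krt75 cells and 1.501 (1.34 to 1.68) in the Unc5d cells of the PADI4 WT library, and 0.231 (0.162 to 0.324) and 1.22 (1.10 to 1.35) in the other. Which light chain prevailed differed by group. Slc7a8 made up most of the sum in the Tagln, Gpnmb and Spon1 cells, and Slc7a6 (y+LAT2), an exchanger of cationic for neutral amino acids, had 131 and 119 CPM in the Unc5d cells and 106 and 98.6 CPM in the Dio2 cells. Slc7a6 was also the leading light chain in the Lmo3, Cdh13 and Far2 cells, and Slc7a5 in the Prr5l, Kit, Nr4a3 and Dsg4 cells, in both libraries. Over the 17 groups, the CPM of Slc3a2 and of the summed light chains had a Pearson correlation of 0.905 (PADI4 WT) and 0.948 (PADI4 cKO by label). The slopes were 0.715 and 0.690 CPM of Slc3a2 per CPM of light chains. The Tagln and Gpnmb cells lay above the rest on both, and the Spearman correlation was 0.72 and 0.79. The points are groups of the same library and share its depth, so this is a description.

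**Figure D2:**
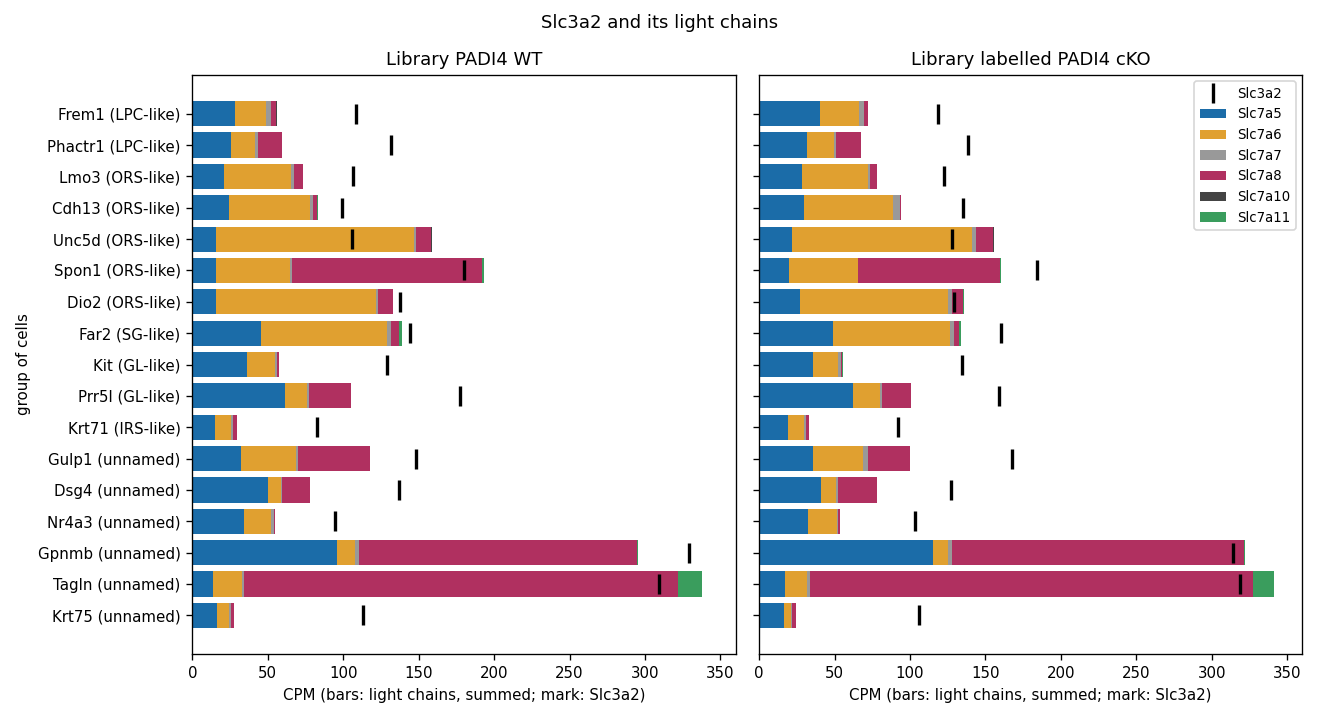
Stacked bars of the CPM of 6 light chains in each of the 17 groups, with a vertical mark for Slc3a2, for the PADI4 WT library (left) and the library labelled PADI4 cKO (right). The Tagln bars reach 338 and 341 CPM and are mostly Slc7a8, and the Unc5d bars, 159 and 156 CPM, are mostly Slc7a6 and pass the Slc3a2 mark.

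Detection of the heavy chain and of a light chain was also compared within single cells at equal depth. After thinning to 2000 UMIs, cells with a Slc7a5 or Slc7a8 UMI had a Slc3a2 UMI more often than cells without one in 21 of 27 combinations of group, library and light chain, by a median of 3.70 percentage points. The intervals of the 2 shares overlapped in all 27. The differences ran from -5.63 points for Slc7a5 in the Nr4a3 cells (library labelled PADI4 cKO) up to 23.0 points in the Dsg4 cells (PADI4 WT library), where 9 of 21 Slc7a5-positive cells and 49 of 247 negative cells had a Slc3a2 UMI. Without thinning the share was higher in 49 of 57 combinations, with separate intervals in 16, but there deeper cells have more of both UMIs. Thinning loses most light chain UMIs, as in the Prr5l cells of the PADI4 WT library, where 73 cells had a Slc7a5 UMI thinned and 360 unthinned, so cells without a UMI can still hold the light chain and the size of an association was not estimated.

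Slc7a2, the cationic carrier CAT2, was highest in the Frem1 cells, which are LPC-like. They had 6 of 7 LPC markers raised (Ptch1, Edar, Sp5, Shh, Npr3 and Wnt7a), while Lgr5 was not raised. They had 2507 UMIs, or 225 CPM (216 to 233), in the PADI4 WT library and 3603 UMIs, or 248 CPM (240 to 256), in the other. The Lmo3 cells had 97.9 and 127 CPM and the Phactr1 cells, the other LPC-like cluster, 90.1 and 112 CPM. The lead of the Frem1 cells was clear of the next group in both libraries. The lowest group was Dsg4 with 3.82 CPM in the PADI4 WT library and Krt75 with 5.11 CPM in the other, a range of 58.7-fold and 48.4-fold. Thinned to 2000 UMIs, 32.3% (28.3 to 36.4%) and 33.6% (30.03 to 37.4%) of the Frem1 cells had a Slc7a2 UMI, against 2.25% and 2.66% of the Krt71 cells. Slc7a2 lies on chromosome 8 (40862396 to 40922308, plus strand).

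Slc7a1 (CAT1), the housekeeping carrier of the same amino acids, is not among the 9 genes and had another pattern. It had 22874 and 23151 UMIs in the epithelial cells and was highest in the Tagln cells, at 541 CPM in both libraries. Both cationic carriers were therefore present, with Slc7a2 above the other groups in the LPC-like Frem1 cells and Slc7a1 in the Tagln cells.

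Of the Slc1 exchangers, Slc1a4 (chromosome 11, 20302180 to 20332713, minus strand) was highest in the SG-like Far2 cells, at 33.2 and 30.02 CPM, and in the Tagln cells, at 31.5 and 26.5 CPM. These overlapped in both libraries. The Krt71 cells were lowest with 1.11 CPM (12 UMIs) and 2.54 CPM (24 UMIs). Slc1a5 (chromosome 7, 16781340 to 16798274, plus strand) varied much less. Its highest levels were 25.5 CPM in the Nr4a3 cells of the PADI4 WT library and 25.1 CPM in the Kit cells of the other, and the lowest were 6.12 and 4.54 CPM in the Krt75 cells. No group was clear of its neighbor in the order of Slc1a5 in either library.

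The sodium-coupled carriers Slc38a1 and Slc38a2, neighbors on chromosome 15 (96571418 to 96642913 and 96687392 to 96699730, both minus strand), tended in opposite directions. Slc38a1 was highest in the Krt75 cells, with 39.3 and 42.0 CPM, the Kit cells, with 33.9 and 33.0 CPM, the Krt71 cells, with 29.8 and 27.6 CPM, and the Nr4a3 cells, with 28.5 and 31.8 CPM. The ORS-like clusters had between 1.65 and 3.89 CPM in the PADI4 WT library and between 0.649 and 4.12 CPM in the other. Slc38a2 was the most abundant member, with 199.6 and 234 CPM over all epithelial cells beside 139 and 145 CPM of Slc3a2. It was highest in the Tagln cells of the PADI4 WT library at 383 CPM (370 to 397) and in the Dio2 cells of the other at 479 CPM (459 to 499), with the Spon1 cells at 340 and 439 CPM. It was lowest in the Dsg4 cells with 89.8 and 105 CPM. Over the 17 groups, the log2(CPM + 1) of Slc38a1 and Slc38a2 had a Pearson correlation of -0.55 and -0.79.

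**Figure D3:**
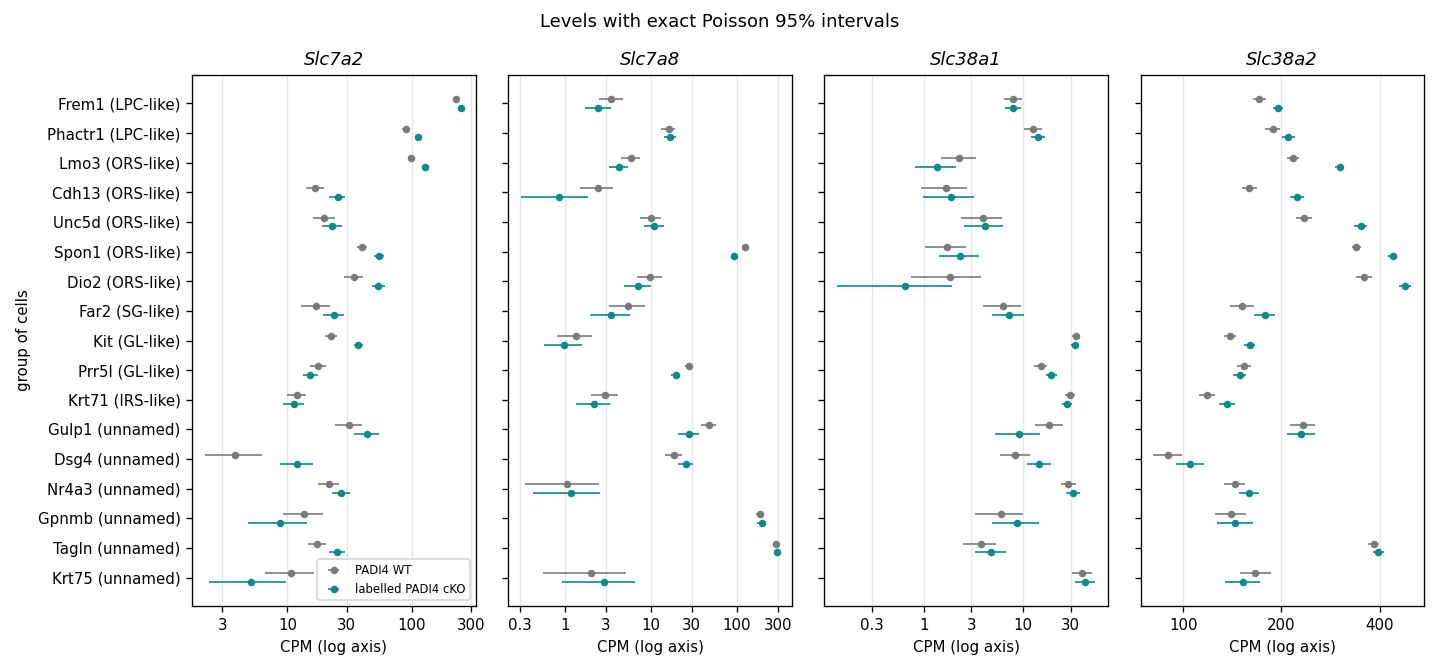
Levels of Slc7a2, Slc7a8, Slc38a1 and Slc38a2 in CPM (log axis) in the 17 groups, as points with exact Poisson 95% intervals, gray for the PADI4 WT library and teal for the library labelled PADI4 cKO. Slc38a1 is at 33.9 and 33.0 CPM in the Kit cells and at 1.71 and 2.33 CPM in the Spon1 cells, while Slc38a2 is at 139 and 160 CPM and at 340 and 439 CPM there.

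The order of the groups was much the same in both libraries. The Spearman correlation of a member's levels over the 17 groups between the libraries ran from 0.77 (Slc1a4) to 0.97 (Slc7a8) for the 8 members other than Slc7a11, which was at 0 in most groups and had 0.68. Of the 9 members, 8 had a range of at least 4-fold in both libraries, and Slc3a2 did not. These ranges depend on how the cells are grouped. With each cell gated on its own markers, the log2 range of Slc7a2 was 3.79 and 3.64 in place of 5.88 and 5.598. That of Slc7a8 was 4.35 and 3.89 in place of 8.08 and 8.42, which rest on 5 and 6 UMIs in the lowest groups. That of Slc3a2 was 1.10 and 0.79 in place of 1.99 and 1.794.

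Among the 9449 genes with at least 1000 UMIs in each library, those with the most similar pattern over the groups were named by the lower of the correlations of the libraries. For Slc7a8 the first was Slc3a2, at 0.88 and 0.85, and for Slc3a2 the first was Gss, the gene of glutathione synthetase, at 0.86 and 0.87, followed by Slc7a8 and Qk. After Slc3a2, Slc7a8 was closest to Adamtsl5 and Ppp3cc. For Slc7a2 they were Mtmr7, at 0.91 and 0.93, and Npr3, a marker of the LPC list, followed by Lrrc4. For Slc7a11 they were Ttc37, at 0.82 and 0.79, and Acta2, the smooth muscle actin, followed by Eps8l2. Because Slc7a11 was near 0 outside the Tagln cells, its likeness rests mostly on that group. The first for Slc1a4 was Fdx1, followed by Gss and Slc1a3, a glutamate carrier. The closest to Slc38a1 was Thap12, at 0.94 and 0.93, to Slc38a2 Cyba, at 0.93 and 0.93, to Slc7a5 Slc4a7, a bicarbonate carrier, at 0.93 and 0.92, and to Slc1a5 Rev1, at 0.90 and 0.90. They were followed by Mboat1 and Eml1 for Slc38a1, Tusc3 and Rnf130 for Slc38a2, Zfp553 and Cdc42se2 for Slc7a5, and Ivns1abp and Spout1 for Slc1a5.

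The second question was whether the levels differed between the libraries. A member was compared in a group where it had at least 100 UMIs over both libraries, as the log2 ratio of its CPM, PADI4 cKO by label over PADI4 WT, and called past a size of 0.5. Of the 102 such combinations of member and group, 13 were past 0.5 (12.7%), 8 higher and 5 lower in the library labelled PADI4 cKO. Of all gene and group combinations compared in the same way, 4.6% were past 0.5, 2.05% higher and 2.56% lower, and within single groups the share ran from 2.71% in the Kit cells to 8.15% in the Cdh13 cells. Over all epithelial cells, where 5.15% of the compared genes were past 0.5 and 1.58% past it in the higher direction, 1 of the 9 members, Slc7a2, was past it.

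Slc7a2 had 48.7 CPM in the PADI4 WT library and 69.7 CPM in the other over all epithelial cells, a log2 ratio of 0.52 (0.47 to 0.56). It was higher in the library labelled PADI4 cKO in 12 of 14 groups, with the interval above 0 in 8. It was past 0.5 in the Kit cells, at 22.5 and 37.2 CPM (log2 ratio 0.72, 0.53 to 0.92), the Dio2 cells, at 34.2 and 53.8 CPM (0.65), the Cdh13 cells, at 16.8 and 25.2 CPM (0.59), and the Tagln cells, at 17.4 and 25.1 CPM (0.53). The Kit value was 0.19 with cells thinned to 2000 UMIs, where fewer UMIs are left and counting error is larger. The Cdh13 value was 0.01 with at least 4000 UMIs per cell and the Tagln value 0.20 at clustering resolution 2.0. These calls were lost there, though the Kit value was past 0.5 in 9 of 13 alternatives. The Dio2 value was past 0.5 in 10 of 10, but with 130 and 249 UMIs it was not compared with at least 500 UMIs per gene. In the Frem1 cells, where its level was highest, the ratio was 0.14 (0.07 to 0.22). The Frem1 cells themselves took 9.19% of the UMIs of the compared groups of the PADI4 WT library and 11.3% of those of the other. With the group shares of the PADI4 WT library applied to both, the ratio over the compared groups went from 0.47 to 0.30.

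Slc38a2 was higher in the library labelled PADI4 cKO in 14 of 17 groups, with the interval above 0 in 11 and below 0 in none. The ratio was 0.23 (0.20 to 0.25) over all epithelial cells and 0.58 (0.47 to 0.69) in the Unc5d cells, at 234 and 350 CPM. Between cells with Xist and no Y-linked UMIs of both libraries the Unc5d value was 0.16. The ratios of the ORS-like clusters lay between 0.37 and 0.58, and those of the Tagln and Gpnmb cells at 0.05. The summed level of 10 dissociation response genes, which include Fos and Jun, was higher in the library labelled PADI4 cKO in 15 of the 17 groups. It was 2833 and 3859 CPM in the Unc5d cells, 1753 and 2521 CPM in the Lmo3 cells, 2103 and 2371 CPM in the Spon1 cells, 1331 and 1777 CPM in the Frem1 cells, 1501 and 1835 CPM in the Krt75 cells, where the Slc38a2 ratio was -0.13, and 1682 and 1771 CPM in the Tagln cells. Their part in the Slc38a2 difference was not tested.

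Slc7a5 was past 0.5 in the Dio2 cells, at 15.5 and 26.8 CPM (0.78, 0.33 to 1.26), and the Frem1 cells, at 28.2 and 40.7 CPM (0.53, 0.33 to 0.73). In the Gpnmb cells the ratio was 0.26 (-0.02 to 0.54). Slc1a5 was past 0.5 in the Lmo3 cells, at 14.0 and 20.6 CPM (0.56, 0.27 to 0.85). With at least 1000 UMIs per cell the Dio2 value of Slc7a5 was 0.37. Between cells with Xist and no Y-linked UMIs the Frem1 value of Slc7a5 was 0.21 and the Lmo3 value of Slc1a5 was 0.27.

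Slc1a4 was lower in the library labelled PADI4 cKO in 8 of 9 groups, with the interval below 0 in 3. These were the Cdh13 cells, at 12.9 and 6.85 CPM (-0.91, -1.43 to -0.42), the Prr5l cells, at 8.27 and 5.05 CPM (-0.71), and the Spon1 cells, at 20.3 and 12.8 CPM (-0.66). With at least 1000 UMIs per cell the Cdh13 value was -0.42. In the same Cdh13 cells the melanocyte list summed to 70.9 and 151 CPM, of which Mitf made up 65.2 and 148 CPM. Dct, at 3.20 and 1.28 CPM, Pmel, Mlana and Tyrp1 were lower in the library labelled PADI4 cKO, and Sox10 had 0 and 1 UMI. The fibroblast list summed to 98.1 and 53.1 CPM, of which Dcn made up 83.4 and 42.6 CPM, and the cell cycle genes to 1065 and 612 CPM. The part of these genes in the Slc7a2 and Slc1a4 ratios there was not tested. Over all epithelial cells Slc1a4 had 11.6 and 8.66 CPM, a ratio of -0.42 (-0.53 to -0.31), and -0.12 with cells thinned to 2000 UMIs. In the Far2 cells, where it was highest, the ratio was -0.15 (-0.52 to 0.23).

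Slc7a8 was past 0.5 in the Prr5l cells, at 27.8 and 19.4 CPM (-0.52, -0.76 to -0.27), and in the Gulp1 cells, at 47.4 and 27.8 CPM (-0.76). The Gulp1 cells of the libraries differed strongly in depth and in the share of doublets, so this ratio may compare unlike cells. The Prr5l value was -0.33 without doublets, and the Gulp1 value 0.0507 with at least 1000 UMIs per cell. Without the Gulp1 cells, 12 of 97 combinations of member and group were past 0.5, or 12.4%, beside 4.54% of all gene and group combinations. In the Tagln cells the Slc7a8 ratio was 0.03 (-0.06 to 0.12). Over all epithelial cells Slc7a8 had a ratio of -0.37 (-0.43 to -0.31), and over the compared groups it went from -0.42 to -0.14 with the group shares of the PADI4 WT library. The Tagln cells took 6.40% and 5.23% and the Spon1 cells 9.17% and 6.68% of the UMIs. Slc3a2 had no group past 0.5, with ratios between -0.16 and 0.44, and Slc38a1 none, with ratios between -0.11 and 0.35. Slc7a11 could be compared in the Tagln cells alone, at -0.22 (-0.63 to 0.18).

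**Figure D4:**
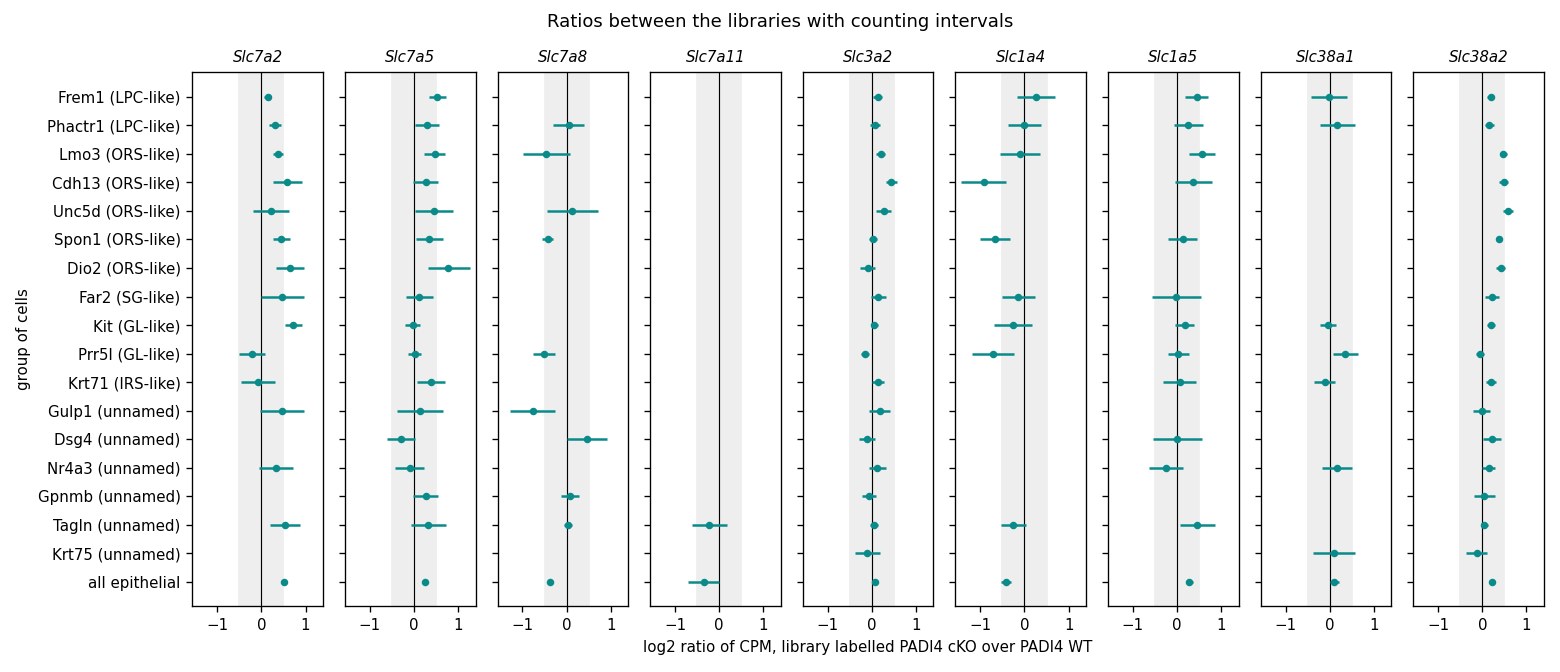
Log2 ratio of CPM, library labelled PADI4 cKO over PADI4 WT, for each member (panels) in each group where it had at least 100 UMIs (rows), with exact intervals as lines and the range within 0.5 of 0 shaded. Slc7a2 lies right of 0 in 12 of 14 groups, Slc1a4 left of it in 8 of 9, and Slc3a2 stays within the shade.

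The ratios were also taken between cells with Xist and no Y-linked UMIs of both libraries. Over all epithelial cells they were 0.36 (0.29 to 0.44) for Slc7a2, -0.50 (-0.59 to -0.41) for Slc7a8, -0.34 (-0.52 to -0.16) for Slc1a4 and 0.14 (0.10 to 0.18) for Slc38a2. Within the PADI4 WT library, cells with Xist UMIs alone had higher levels than cells with Y-linked UMIs alone of Slc7a2, by 0.25 (0.17 to 0.34) on the log2 scale, of Slc38a1, by 0.34 (0.18 to 0.50), and of Slc7a8, by 0.25 (0.16 to 0.34). These differences within 1 library were similar in size to several of those between the libraries. For Slc7a8 the direction was opposite, since it was lower in the library labelled PADI4 cKO. Group shares were not equalized here. The Cdh13 cells, for example, were 478 of the 4989 cells with Y-linked UMIs alone and 90 of the 2080 with Xist UMIs alone.

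The rest of the pathway was described by lists of genes written from their known roles and compared in the same way. Of the other 36 amino acid carriers listed, the light chain Slc7a6 was past 0.5 in 0 of 14 groups and the cationic carrier Slc7a1 in 0 of 16. Slc1a3, a glutamate carrier with 190 and 149 CPM in the Tagln cells, was below -0.5 in 4 of 9 groups and was the gene of its family that could be compared. Of the Slc38 carriers 1 combination of gene and group was above 0.5 and 2 below -0.5 of 67, and Slc38a4, whose highest level was 107 CPM in the Lmo3 cells of the library labelled PADI4 cKO, and Slc38a10 had the most UMIs. Of the remaining carriers 4 combinations were above and 4 below of 68. Slc16a10 (TAT1), a carrier of aromatic amino acids, had the most UMIs of these and reached 305 and 358 CPM in the Nr4a3 cells, where Slc7a8 was near its lowest level. Slc6a6, a taurine carrier, had 288 and 281 CPM in the Tagln cells.

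Of the amino acid response genes 12 of 15 could be compared, and of their 166 combinations 3 were above 0.5 and 2 below -0.5, or 3.01%. Phgdh, the first enzyme of serine synthesis, and Cebpb, a transcription factor, had the most UMIs of this list. Of the 100 combinations of the Nrf2 and glutathione genes none was above 0.5 and 2 were below. Gclc, the catalytic subunit of the enzyme that starts glutathione synthesis, was highest in the Tagln cells, the cells with Slc7a11, at 589 and 507 CPM, and Gclm, its partner, was highest there too. Of the 104 combinations of arginine and glutamine enzymes 2 were above and 11 below, 5 of them of Odc1, which makes putrescine from ornithine. The dissociation response had 46 above and 19 below of 165, with Fosb above in 15 groups, Fos in 11, Egr1 and Dusp1 in 4 each, and Atf3 above in 5 and below in 3, while the heat shock genes Hspa1a and Hspa1b were below in 10 and 6. The cell cycle genes had 2 above and 24 below of 99, with Mki67 below in 8 groups, Ccnb1 in 7, Top2a in 5 and Cdk1 in 4. The part of either list in the member ratios was not tested.

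Of the markers of other cell types, the immune, erythroid and endothelial lists summed to at most 4.88, 5.40 and 7.28 CPM in any of the 17 groups. The fibroblast list was higher in several, and nearly all of it was Dcn, the gene of the proteoglycan decorin. Dcn had 4267 and 3662 CPM in the Nr4a3 cells, 2208 and 2619 CPM in the Prr5l cells, 1493 and 1386 CPM in the Kit cells, 1246 and 1006 CPM in the Gulp1 cells and 1131 and 1319 CPM in the Gpnmb cells. It had 472 and 399 CPM in the Dsg4 cells, 433 and 391 CPM in the Krt71 cells and 319 and 302 CPM in the Frem1 cells, and in the fibroblast-like cells 462 and 393 CPM. Col1a1 and Col3a1 did not follow it, with at most 11.2 and 0.859 CPM in any of the 17 groups, against 835 and 1217 CPM in the fibroblast-like cells of the PADI4 WT library. The melanocyte list was highest in the Unc5d cells, at 273 and 293 CPM, of which Mitf made up 265 and 288 CPM. It had 134 and 163 CPM in the Lmo3 cells, of which Mitf made up 127 and 159 CPM. In the Cdh13 cells it had 70.9 and 151 CPM, of which Mitf made up 65.2 and 148 CPM. It had 112 and 161 CPM in the Gpnmb cells, where Dct had 57.3 and 71.7 CPM. Its lowest sums were 14.3 and 10.2 CPM in the Krt75 cells. The part of these genes in the member levels was not tested.

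Levels were last set against the called cell cycle phase, where a group of 1 library had at least 20 cells in both G1 and G2M and at least 100 UMIs of the member in them. Slc7a8 was lower in G2M than in G1 in 6 of 6 such comparisons, with separate intervals in 5. In the Tagln cells it was at 397 CPM (372 to 423) in G1, 258 CPM in S and 216 CPM (198 to 235) in G2M of the PADI4 WT library, and at 398, 280 and 198 CPM in the other. In the Prr5l cells it had 72.4 CPM in G1 and 29.9 CPM in G2M of the PADI4 WT library, and 83.7 and 19.8 CPM in the other, with 33 cells in G1 in each library. The intervals overlapped in the Spon1 cells of the library labelled PADI4 cKO, at 105 and 96.2 CPM. The heavy chain Slc3a2 was higher in G2M in 15 of 26 comparisons and Slc38a2 in 12 of 26, with median log2 ratios of 0.07 and -0.02. Phases were called from the cells' own counts, which include free RNA, and cells of different maturity within a group were not told apart.

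**Figure D5:**
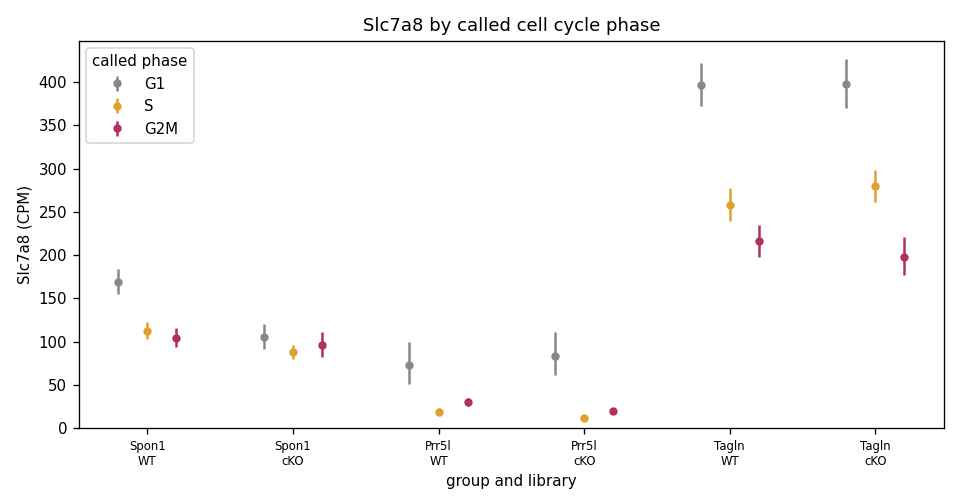
Level of Slc7a8 in CPM by called phase (gray G1, yellow S, magenta G2M) in the 6 combinations of group and library with enough cells, as points with exact Poisson 95% intervals. In the Tagln cells the points descend from 397 to 216 CPM and from 398 to 198 CPM, and in the Spon1 cells of the library labelled PADI4 cKO they overlap.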

How the data were processed

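Single-cell libraries were made from tdTomato-positive cells of P1 back skin with 10x 3′ chemistry. The authors deposited UMI counts per gene and droplet, raw barcodes included, made with Cell Ranger 7.1.0 against mm10. The later steps of the study, removal of ambient RNA with CellBender and correction for cell cycle phase with Harmony, were not run here. Whether intronic reads were counted is not given in the sources used here. The cell limits of the study were applied: 2000 to 60000 UMIs, between 1000 and 8000 detected genes, no more than 20% mitochondrial or 1% hemoglobin UMIs, and a ribosomal share within the 5th to 99th percentile. Cells were clustered in Scanpy 1.11.5 (1000 variable genes, 50 components, 15 neighbors, Leiden resolution 1.0), without the 9 genes, related carriers, Padi, cell cycle and sex-linked genes and with cell cycle scores regressed out. A cluster was named from at least 3 markers at 5 CPM or more and 1.5-fold over the rest, where no other list had as many, or more among the 10 leading genes, and no library held 90% of the cells. Doublets were called with Scrublet and kept, at a threshold of 0.198 for both libraries, chosen after the automatic values were seen. Phases were called with Scanpy.

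UMIs were summed per group and library. CPM had exact Poisson intervals and shares exact Clopper-Pearson intervals, at 95%. Ratios had 0.5 UMI added to each sum and exact conditional binomial intervals. PCR duplicates were removed by UMI, but intervals cover counting error only. No test was made between libraries, since each label has 1 library. Groups needed 50 cells in each library. The calls were tried on simulated counts for the Frem1 and Krt75 groups, with counting error only and no other difference between libraries. There 100% of the planted changes were found, and 0.634% and 1.81% of unchanged genes were past 0.5. In the data 4.37% and 7.48% of the genes of these groups were past it. The simulation therefore does not cover differences between libraries, animals or sexes. Gene positions were from GENCODE M21 (GRCm38). Genes named were the 9 members, for each the 3 most similar genes among those with at least 1000 UMIs per library, and of each list the 2 genes with the most UMIs and those past 0.5 with 1 sign in at least 4 groups. The members and lists were chosen with earlier results of these data known. Alternatives changed the UMI minimum, doublets, clustering, thinning, free RNA, scaling, gene minimum and cells by sex-linked UMIs.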

Additional observations from a re-analysis of the deposited data

Results flagged for a closer look

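Slc38a1 stood out in cells that the comparisons did not use. In the melanocyte-like cells, led by Ptgds, it had 91.5 CPM in the PADI4 WT library, from 30 UMIs in 26 cells, and 124 CPM in the library labelled PADI4 cKO, from 24 UMIs in 10 cells. In both libraries the interval lay above that of every compared epithelial group, the highest of which was Krt75 at 39.3 and 42.0 CPM.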

How the results depend on the processing

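Of the 9 members, 8 had a range of at least 4-fold in both libraries, against 5 at resolution 0.5 (9 groups), 5 with each cell gated on its own (10 groups) and 5 with cells thinned to 2000 UMIs. Of such ranges over all members and alternatives, 57 values moved beyond counting error and 141 did not. The log2 range of Slc7a2 ran from 3.79 to 8.12 (PADI4 WT) and from 3.64 to 6.72 (PADI4 cKO by label). That of Slc7a8 ran from 4.35 to 8.08 and from 3.89 to 10.9. The 10.9 came with free RNA subtracted, which takes UMIs from lowest groups that held few. Thinned, the Tagln level of Slc7a11 lay below the 3-UMI limit of the Krt75 cells. The share of member and group combinations past 0.5 was 12.7%, against 4.60% of all genes. It was 7.69% against 1.76% with at least 500 UMIs per gene. Under the other alternatives it was from 11.3% to 18.8%, where the share of all genes ran from 4.43% to 7.34%. The shares were nearer each other with at least 50 UMIs per gene, at 14.7% against 7.34%. In cells with Xist and no Y-linked UMIs they were 14.3% against 7.19%. The reversed value was that of Slc7a8 in the Gulp1 cells, which went from -0.76 to 0.0507 with at least 1000 UMIs per cell, and the cause was not tested. Several group ratios fell below 0.5 in cells with Xist and no Y-linked UMIs, to 0.16 for Slc38a2 in the Unc5d cells, 0.21 for Slc7a5 in the Frem1 cells and 0.27 for Slc1a5 in the Lmo3 cells. Slc7a2 ranged from 0.01 (at least 4000 UMIs per cell) to 2.59 (cells with Xist alone) in the Cdh13 cells. The 2.59 (1.37 to 4.65) rested on 4 UMIs in 90 cells of the PADI4 WT library. Slc7a2 was 0.19 in the Kit cells after thinning and 0.20 in the Tagln cells at resolution 2.0. Slc7a5 in the Dio2 cells was 0.37 and Slc1a4 in the Cdh13 cells -0.42 with at least 1000 UMIs per cell, and Slc7a8 in the Prr5l cells -0.33 without doublets. Over all epithelial cells, Slc3a2 was at -0.08 and Slc38a1 at -0.14 in cells with Xist alone, against 0.06 and 0.10, and Slc1a4 at -0.12 thinned, against -0.42. Leaving aside gating of single cells, the highest group was the same in 10 of 10 alternatives for Slc7a2, Slc7a8 and Slc7a11, in both libraries. For the others it was the same in 6 to 9. Alternatives with another resolution or UMI minimum clustered the cells anew, and each new cluster took the group name most frequent among its cells. With each cell gated on its own, the highest class was the LPC for Slc7a2, the medulla (PADI4 WT) and the companion layer (PADI4 cKO by label) for Slc7a8, and the companion layer for Slc7a11. Leaving out the Gulp1 group was chosen after seeing the data. The share of co-detection combinations above 0 was 77.8% thinned, 79.2% without doublets and 86.0% unthinned. No paired analysis was possible because each label has 1 library, and for the same reason no replicate could be left out. Depth limited Slc7a11 most, which had at least 100 UMIs in the Tagln cells alone.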

Other observations

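In the fibroblast-like cells, which entered no comparison, Slc38a1 had 57.0 CPM in the PADI4 WT library and 54.4 CPM in the library labelled PADI4 cKO.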
